A study of Mus musculus with 9 samples.

Results

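miR-17 and miR-20a together form one of the seed families encoded by the mouse miR-17~92 cluster. Their 4 mature strands were taken from the small RNA table by name: mmu-miR-17-5p, mmu-miR-17-3p, mmu-miR-20a-5p and mmu-miR-20a-3p. They make up 4 of the 986 rows of mature miRNAs that remained once duplicate listings were merged, and each was listed once. Each library was made from mouse embryo tissue of embryonic day 9.5 left once heart and tail bud had been dissected away; all are labelled female, and each genotype has 1 library. In 4 libraries the pair was deleted: ΔmiR-17, ΔmiR-17,18, ΔmiR-17,18,92, which leaves the miR-19 family, and a deletion of the full cluster. It was intact in the other 4, which were ΔmiR-18, ΔmiR-19, ΔmiR-92 and wild type. The labels name only miR-17 in the partial deletions; that miR-20a went with it is read from the values below. How many embryos made up a library, their strain, and whether the mutants were homozygous are not given in the sources used here. A 9th library, of reads that matched no genotype, entered no test and is described apart from the genotypes.

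The cluster is transcribed as a single primary RNA, from which Drosha cuts the hairpins and Dicer frees a duplex of a 5p and a 3p strand. An Argonaute protein keeps one strand, the guide, which finds messenger RNAs by its seed, while the partner strand is mostly degraded. The miR-17~92 cluster is known as a driver of proliferation and survival in embryonic and tumour cells, and the guides of miR-17 and miR-20a repress regulators of the cell cycle and of apoptosis, among them the messages of p21 and Bim. Paralog clusters carry guides of the same seed: miR-106a and miR-20b lie together on the X chromosome, and miR-106b and miR-93 lie together on chromosome 5.

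The sequences of the members and of the paralog guides are shown because later comparisons refer to how alike they are. Capitals mark the seed, bases 2 to 8. All 12 miRNAs looked up, partner strands included, matched RefSeq (GRCm38.p6), from which the sequences come.
mmu-miR-17-5p: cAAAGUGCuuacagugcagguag
mmu-miR-20a-5p: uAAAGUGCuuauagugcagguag
mmu-miR-106a-5p: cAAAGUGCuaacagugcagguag
mmu-miR-20b-5p: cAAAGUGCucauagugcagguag
mmu-miR-93-5p: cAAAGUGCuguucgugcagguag
mmu-miR-106b-5p: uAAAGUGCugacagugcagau
mmu-miR-17-3p: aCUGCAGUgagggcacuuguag
mmu-miR-20a-3p: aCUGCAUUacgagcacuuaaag

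Counting from 1 at the 5′ end, miR-20a-5p differs from miR-17-5p by C1U and C12U and has the same seed. miR-106a-5p is closer still to miR-17-5p, with U10A as the single difference. miR-20b-5p differs from miR-20a-5p by U1C and U10C. The partner strands are less alike: miR-20a-3p differs from miR-17-3p at 6 of 22 aligned bases, one of them, G7U, within the seed.

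The hairpins are shown next, with both mature strands in capitals, because the arm ratios described further on compare the strands of one hairpin.
Mir17: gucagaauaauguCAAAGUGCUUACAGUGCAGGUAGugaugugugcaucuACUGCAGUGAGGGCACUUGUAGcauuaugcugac
Mir20a: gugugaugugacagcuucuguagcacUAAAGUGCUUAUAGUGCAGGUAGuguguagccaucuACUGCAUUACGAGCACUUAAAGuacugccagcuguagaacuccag

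In GRCm38, Mir17 lies on the plus strand at chr14:115043671-115043754 and Mir20a at chr14:115044157-115044263, with 402 bases between them. Both hairpins lie within an annotated exon of the host gene Mir17hg. The guide of Mir17 spans chr14:115043684-115043706 and its partner chr14:115043721-115043742. The guide of Mir20a spans chr14:115044183-115044205 and its partner chr14:115044219-115044240.

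The 8 genotype libraries held between 6564461 and 18481223 reads assigned to miRNAs, ΔmiR-92 having the fewest and ΔmiR-18 the most. Levels are given as nRPM, the authors' normalised values brought by one common factor to the scale of RPM, so that a single read counted for as little as 0.0624 nRPM, in ΔmiR-18, and as much as 0.157 nRPM, in wild type; it counted for 0.352 nRPM in the library without a genotype, which held 3024805 reads. Mature miRNAs are of nearly one length, and levels were not divided by it. Each of 5 lists of miRNAs known to mark other tissues was present, as a sum, in every intact library. The summed muscle markers, 6 miRNAs, ranged over 2215 to 6110 nRPM in deleted and 2674 to 5212 nRPM in intact libraries. The 2 neural ones ranged over 2299 to 5001 and 1663 to 4162 nRPM, the 2 erythroid ones over 743 to 1312 and 921 to 1453 nRPM, in the same order. The 2 endothelial ones ranged over 7371 to 17558 and 9863 to 13156 nRPM, and 4 early-embryo miRNAs over 4759 to 8262 and 5321 to 6852 nRPM. The ranges of deleted and intact libraries overlapped for all 5 lists.

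All 4 strands were nearly absent wherever the miR-17 family was deleted, and both strands of miR-20a were lost along with those of miR-17. miR-17-5p had 137 reads (ΔmiR-17), 1572 (ΔmiR-17,18), 128 (ΔmiR-17,18,92) and 96 (full deletion), against 582458 (ΔmiR-18), 203931 (ΔmiR-19), 375377 (ΔmiR-92) and 110648 (wild type). As levels these were 10.1, 180.0, 8.87 and 10.1 nRPM in the deleted libraries, in that order, and 36341, 21449.8, 53719.9 and 17331 nRPM in the intact ones. Every deleted library lay far below every intact one, and ΔmiR-17,18 was the highest of the deleted. The group means were 52.3 ± 85.2 nRPM and 32210.4 ± 16502 nRPM in deleted and intact libraries (SD, n = 4 each).

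miR-20a-5p followed the same pattern. Its reads numbered 286 (ΔmiR-17), 1632 (ΔmiR-17,18), 125 (ΔmiR-17,18,92) and 200 (full deletion), against 338297 (ΔmiR-18), 132225 (ΔmiR-19), 106763 (ΔmiR-92) and 198383 (wild type). Levels were 21.2, 187, 8.66 and 20.99 nRPM in the deleted libraries, against 21107, 13908, 15279 and 31072 nRPM in the intact ones, listed in the same order. The groups did not overlap, and ΔmiR-17,18 was again the highest of the deleted. Deleted libraries averaged 59.4 ± 85.2 nRPM and intact ones 20341.5 ± 7805 nRPM (SD, n = 4 each).

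The partner strands were rarer and likewise nearly absent after deletion. miR-17-3p had 12 reads (ΔmiR-17), 21 (ΔmiR-17,18), 17 (ΔmiR-17,18,92) and 1 (full deletion), against 39624 (ΔmiR-18), 25410 (ΔmiR-19), 13555 (ΔmiR-92) and 12475 (wild type). miR-20a-3p had 0 reads in all 4 deleted libraries, against 2154 (ΔmiR-18), 2757 (ΔmiR-19), 1527 (ΔmiR-92) and 1453 (wild type). miR-20a-3p was thus the one member with no read left after deletion. A count of 0 allows up to 3 reads, which in the deleted libraries equal between 0.208 and 0.344 nRPM. The intact mean of miR-20a-3p, 217.6 ± 63.9 nRPM (SD, n = 4), was at least 634-fold higher than the largest of these floors. Intervals and floors here cover counting error only.

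**Figure D1:**
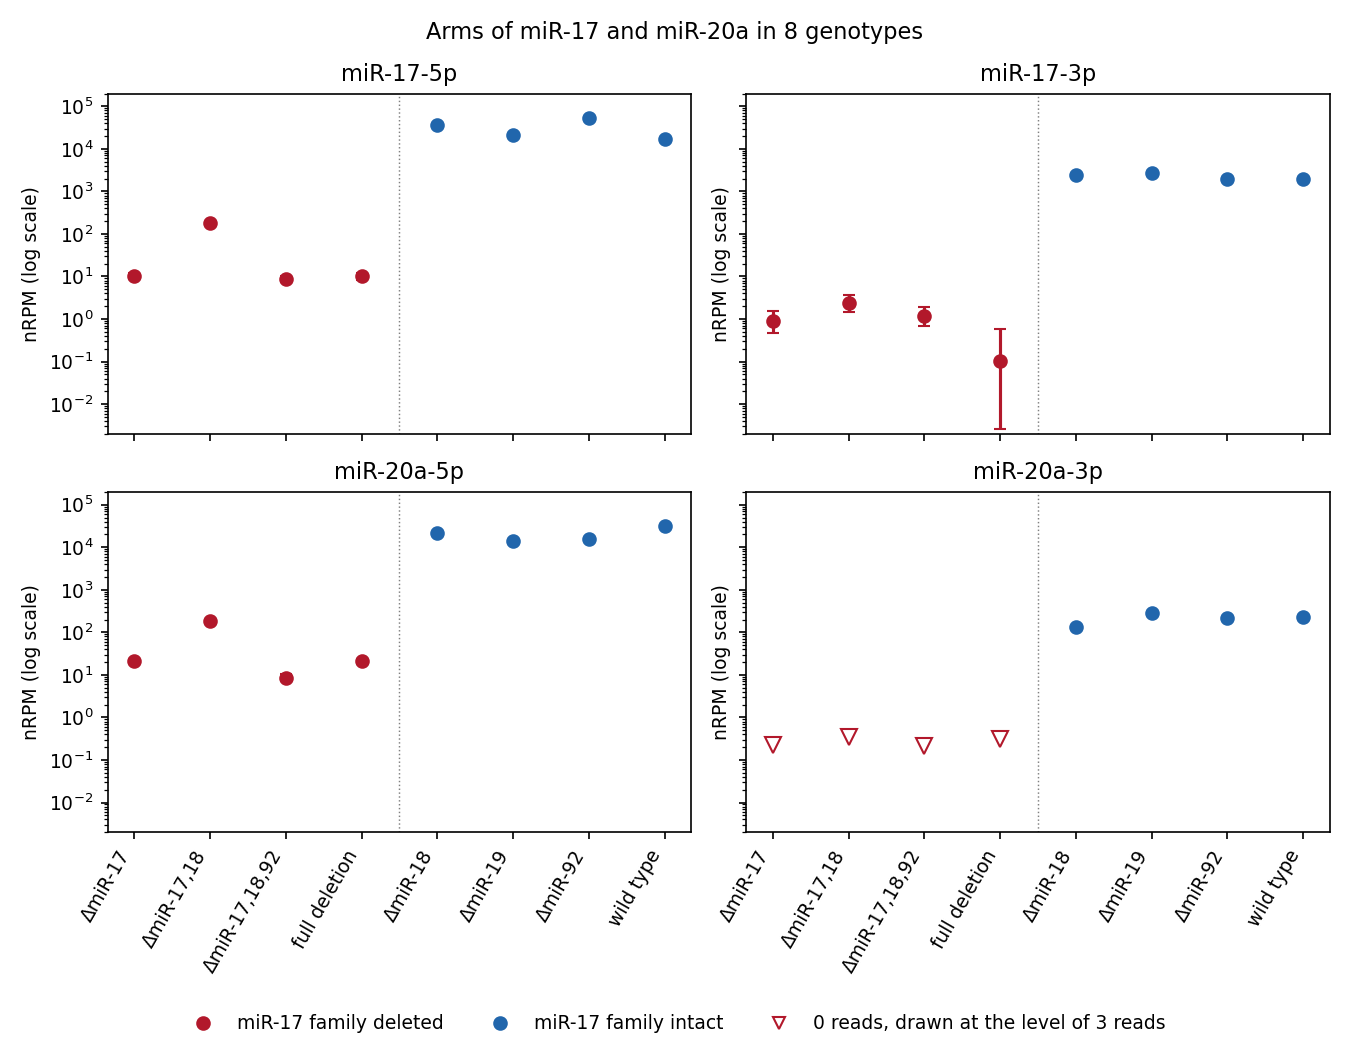
Levels of both arms of miR-17 and miR-20a in nRPM (log axis) in 8 genotypes with 1 library each: red, miR-17 family deleted; blue, intact; bars, exact 95% Poisson intervals; open triangles, 0 reads, drawn at the level of 3 reads. Every deleted library lies below every intact one, and ΔmiR-17,18 is the highest deleted library for both 5p strands (180.0 and 187 nRPM).

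Across 551 miRNAs averaging 10 nRPM or more, limma called 4 lower in deleted than in intact libraries, which is 0.726% of those tested, and these 4 were the members. The libraries were grouped by the deletion of these members, so their calls and p-values were set by that choice and only check the labels. The loss of miR-20a was itself read from these values. The 3p strands passed the filter only through the intact libraries. On the log2(nRPM + 1) scale, miR-17-5p differed by -10.40 ± 0.88 (SE) between deleted and intact libraries (limma, Benjamini-Hochberg adjusted p = 7.04e-05). miR-17-3p differed by -10.14 ± 0.34 (limma adjusted p = 5.15e-08) and miR-20a-5p by -9.30 ± 0.78 (limma adjusted p = 7.04e-05). miR-20a-3p, whose fitted value depends on the pseudocount, differed by -7.72 ± 0.31 (limma adjusted p = 1.24e-07). The two-sided exact permutation p of each member was 0.0286, the smallest that 4 against 4 libraries can give. No miRNA was called higher (0 by limma, by edgeR and by DESeq2). At an unadjusted p under 0.05, 12 of the 551 were higher by limma, 18 by edgeR and 21 by DESeq2. Those lower at that threshold, members included, numbered 16, 13 and 19 in the same order. The groups join genotypes that also differ in other deletions, with 1 library each, and these p-values thus rest on a spread among single libraries that may be technical in part. For miRNAs that were not deleted, fewer cells of a type and less RNA per cell cannot be told apart in RNA from such mixed embryo tissue.

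What remained after deletion was small and uneven. The guides together stood at 31.3 nRPM in ΔmiR-17, 367 nRPM in ΔmiR-17,18, 17.5 nRPM in ΔmiR-17,18,92 and 31.1 nRPM in the full deletion, against 48403 nRPM in wild type. ΔmiR-17,18 held 1.04% of the wild-type level of miR-17-5p and 0.601% of that of miR-20a-5p, whereas the other deleted libraries held between 0.0279% and 0.0682% of either guide. Without ΔmiR-17,18, the limma difference was -11.42 for miR-17-5p and -10.17 for miR-20a-5p. The same library also held the most miR-18a-5p among libraries with that neighbour deleted, at 72.6 nRPM, against 4.30 nRPM in ΔmiR-17,18,92, 17.3 nRPM in the full deletion and 4.49 nRPM in ΔmiR-18. Its 3p strands did not stand apart to that degree, with 21 reads of miR-17-3p (2.40 nRPM) and 0 of miR-20a-3p.

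The leftover reads can be set beside those of the nearest relatives. In deleted libraries, miR-17-5p reads as a share of those of miR-106a-5p came to 0.309% (ΔmiR-17), 2.38% (ΔmiR-17,18), 0.164% (ΔmiR-17,18,92) and 0.107% (full deletion). miR-20a-5p reads came to 0.269%, 2.22%, 0.121% and 0.153% of those of miR-20b-5p in the same order. Both shares were highest in ΔmiR-17,18 and under 1% elsewhere. How the authors' counting treated reads that fit several of these near-identical guides is not stated in the sources used here, so the assignment of reads among them is uncertain and its part in the leftover was not tested.

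Among the 4 libraries that kept the pair, the guides moved apart. Of the 4, wild type had the least miR-17-5p and the most miR-20a-5p, and in each of the 3 mutants miR-17-5p stood higher and miR-20a-5p lower than in wild type. The ratio of miR-17-5p to miR-20a-5p reads was 1.72 in ΔmiR-18 (exact conditional 95% interval 1.71 to 1.73), 1.54 in ΔmiR-19 (1.53 to 1.55), 3.52 in ΔmiR-92 (3.49 to 3.54) and 0.558 in wild type (0.554 to 0.562). miR-17-5p was thus the more abundant guide in the 3 mutants, and miR-20a-5p in wild type, over a 6.30-fold range. A ratio within a library does not depend on the scaling between libraries. With 1 library per genotype there is no replicate check, and all 3 mutants are set against the same wild-type library.

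As folds over wild type, miR-17-5p stood at 2.10 (ΔmiR-18), 1.24 (ΔmiR-19) and 3.10 (ΔmiR-92), and miR-20a-5p at 0.679, 0.448 and 0.492 in the same order. A change of 2-fold or more was counted among the 329 miRNAs averaging 100 nRPM or more, as a description without a test. It was passed upward by 8.21% of these miRNAs (ΔmiR-18), 3.34% (ΔmiR-19) and 7.6% (ΔmiR-92), and downward by 7.6%, 6.99% and 7.9%. miR-17-5p passed it upward in ΔmiR-18 and ΔmiR-92, and miR-20a-5p downward in ΔmiR-19 and ΔmiR-92. Over 5 scalings between libraries miR-17-5p ranged over 2.01 to 2.16 in ΔmiR-18, 1.23 to 1.403 in ΔmiR-19 and 2.92 to 3.65 in ΔmiR-92. miR-20a-5p ranged over 0.652 to 0.700, 0.445 to 0.507 and 0.463 to 0.580, so that its direction held but neither of its 2-fold changes passed under every scaling.

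The sum of both guides moved less than their ratio. It was 57449 nRPM in ΔmiR-18, 35357 nRPM in ΔmiR-19 and 68999 nRPM in ΔmiR-92, against 48403 nRPM in wild type, a 1.95-fold range. The 4 strands together took 5.21% of the reads of ΔmiR-18, 3.92% of ΔmiR-19, 7.57% of ΔmiR-92 and 4.57% of wild type. In the deleted libraries they took between 0.00219% and 0.0348%.

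As a description, all other pairs of miRNAs with one seed and at least 1000 nRPM in the intact libraries were measured in the same way. Of these 49 pairs, 5 (10.2%) had a range as wide or wider. Each of the 5 holds a strand that is deleted in one of these 4 libraries, such as miR-18a-5p with miR-18b-5p. Of the 44 pairs without such a strand, 0 ranged as widely; their median was 1.74-fold and their widest 4.67-fold, for miR-106a-5p over miR-20a-5p. Some of these pairs, like that last one, hold miR-17-5p or miR-20a-5p. The exclusion of deleted strands was chosen after the values were seen. The opposite movement of the guides was also known before the pairs were compared, so the rank of their ratio adds no support.

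The partner strands followed their guides only in part. miR-17-3p stood at 2472 nRPM in ΔmiR-18, 2673 nRPM in ΔmiR-19 and 1939.8 nRPM in ΔmiR-92, against 1954 nRPM in wild type, a 1.38-fold range where its guide had 3.10-fold. Its folds over wild type were 1.27 (1.24 to 1.29), 1.37 (1.34 to 1.398) and 0.993 (0.969 to 1.02). The last took either sign, between 0.934 and 1.17, over the 5 scalings. In ΔmiR-92, where miR-17-5p was highest, miR-17-3p was therefore close to its wild-type level.

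miR-20a-3p stood at 134 nRPM in ΔmiR-18, 289.99 nRPM in ΔmiR-19 and 219 nRPM in ΔmiR-92, against 228 nRPM in wild type. Its folds over wild type were 0.591 (0.552 to 0.632), 1.27 (1.20 to 1.36) and 0.960 (0.893 to 1.03), the last taking either sign over the scalings, between 0.904 and 1.13. In ΔmiR-19, miR-20a-3p was thus above wild type while its guide was at its lowest. Neither partner strand reached 2-fold in any of the 3 mutants. The ratio of miR-17-3p to miR-20a-3p was 18.4 in ΔmiR-18 (17.6 to 19.2), 9.22 in ΔmiR-19 (8.86 to 9.59), 8.88 in ΔmiR-92 (8.42 to 9.37) and 8.59 in wild type (8.13 to 9.07). The partners kept much the same ratio in ΔmiR-19, ΔmiR-92 and wild type, where the guide ratio was 1.54, 3.52 and 0.558.

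**Figure D2:**
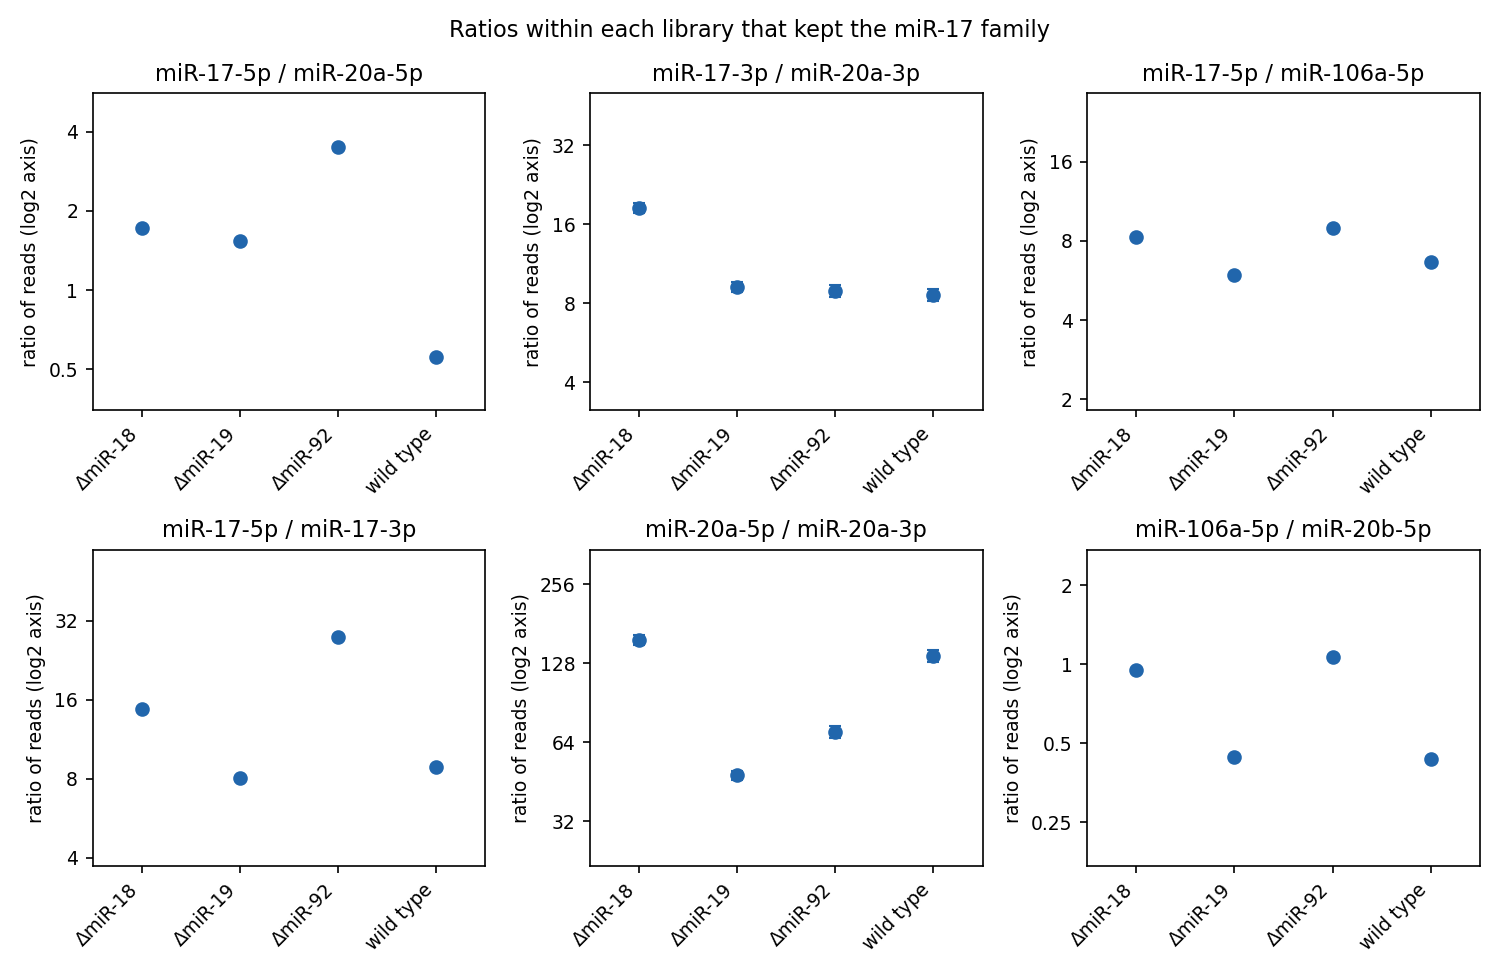
Ratios of reads within each of the 4 libraries that kept the miR-17 family (log2 axes of equal span; bars, exact conditional 95% intervals for counting error, mostly smaller than the points). The ratio of miR-17-5p to miR-20a-5p spans 6.30-fold with wild type lowest at 0.558, while miR-17-5p over its near-twin miR-106a-5p spans 1.51-fold.

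The 5p strand dominated both hairpins, more so in miR-20a than in miR-17. Reads of miR-17-5p outnumbered those of miR-17-3p by 14.7 (ΔmiR-18), 8.03 (ΔmiR-19), 27.7 (ΔmiR-92) and 8.87 (wild type). For miR-20a the ratio of 5p to 3p was 157 (ΔmiR-18), 48.0 (ΔmiR-19), 69.9 (ΔmiR-92) and 137 (wild type). ΔmiR-19 was lowest for both hairpins, but the highest was ΔmiR-92 for miR-17 and ΔmiR-18 for miR-20a. The ranges were 3.45-fold and 3.27-fold.

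Such shifts in arm ratio were not rare in these libraries. Of 77 other hairpins with both arms averaging 100 nRPM or more, 14 (18.2%) ranged as widely as miR-17 and 15 (19.5%) as widely as miR-20a, and the median range was 2.02-fold. In the deleted libraries the leftover reads were also mostly 5p. miR-17-5p exceeded miR-17-3p by 11.4 in ΔmiR-17 (6.33 to 22.6), 74.9 in ΔmiR-17,18 (48.8 to 121) and 7.53 in ΔmiR-17,18,92 (4.52 to 13.3). The full deletion had 96 reads of miR-17-5p against 1 of miR-17-3p, too few of the second for a useful ratio. miR-20a-5p exceeded the 3-read floor of miR-20a-3p at least 95.3-fold in ΔmiR-17, 544.0-fold in ΔmiR-17,18, 41.7-fold in ΔmiR-17,18,92 and 66.7-fold in the full deletion.

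miR-17-5p moved with miR-106a-5p, the paralog guide that differs from it by U10A alone. Their ratio was 8.28 (ΔmiR-18), 5.92 (ΔmiR-19), 8.95 (ΔmiR-92) and 6.63 (wild type), a 1.51-fold range. miR-20a-5p did not keep so close to miR-20b-5p, with a ratio of 4.57 (ΔmiR-18), 1.70 (ΔmiR-19), 2.72 (ΔmiR-92) and 5.20 (wild type), a 3.06-fold range. It kept closer to miR-93-5p, from which it differs at 4 bases, with a ratio that ranged 1.60-fold. The paralog pair from the X chromosome shifted the same way as miR-17-5p over miR-20a-5p, by less, in ΔmiR-18 and ΔmiR-92 but not in ΔmiR-19. miR-106a-5p over miR-20b-5p was 0.951 (ΔmiR-18), 0.442 (ΔmiR-19) and 1.07 (ΔmiR-92), against 0.437 in wild type. Relative to wild type, miR-106a-5p had folds of 1.68, 1.39 and 2.30 in ΔmiR-18, ΔmiR-19 and ΔmiR-92, and miR-106b-5p of 1.67, 1.66 and 1.91. miR-93-5p had 0.749, 0.567 and 0.787. miR-20b-5p was mixed, at 0.773, 1.37 and 0.939, and the last of these took either sign over the scalings.

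In the 3 mutants that kept the family, these directions sorted the 6 guides in part by one base. Relative to miR-17-5p, the change C12U is carried by miR-20a-5p, miR-20b-5p and miR-93-5p, while miR-106a-5p and miR-106b-5p have no difference from it at position 12. The guides without C12U were above wild type in all 3 mutants. Of those with it, miR-20a-5p and miR-93-5p were below wild type in all 3, and miR-20b-5p was above it in ΔmiR-19. The deleted libraries did not sort this way. In ΔmiR-17, ΔmiR-17,18, ΔmiR-17,18,92 and the full deletion, miR-93-5p had folds over wild type of 1.22, 1.19, 1.10 and 2.29. In that order miR-20b-5p had 1.32, 1.41, 1.19 and 2.29, miR-106a-5p 1.26, 2.90, 2.07 and 3.61, and miR-106b-5p 0.996, 2.85, 1.34 and 2.04. Over the 4 intact libraries, the ratio within the 6 pairs alike at base 12 ranged between 1.44-fold and 3.06-fold (median 1.89), and within the 9 pairs that differ there between 2.16-fold and 6.30-fold (median 3.66). The pairs share guides and libraries, and the grouping was chosen after the values were seen. It is a description of these sequences, and the part of base 12 in the values was not tested.

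**Figure D3:**
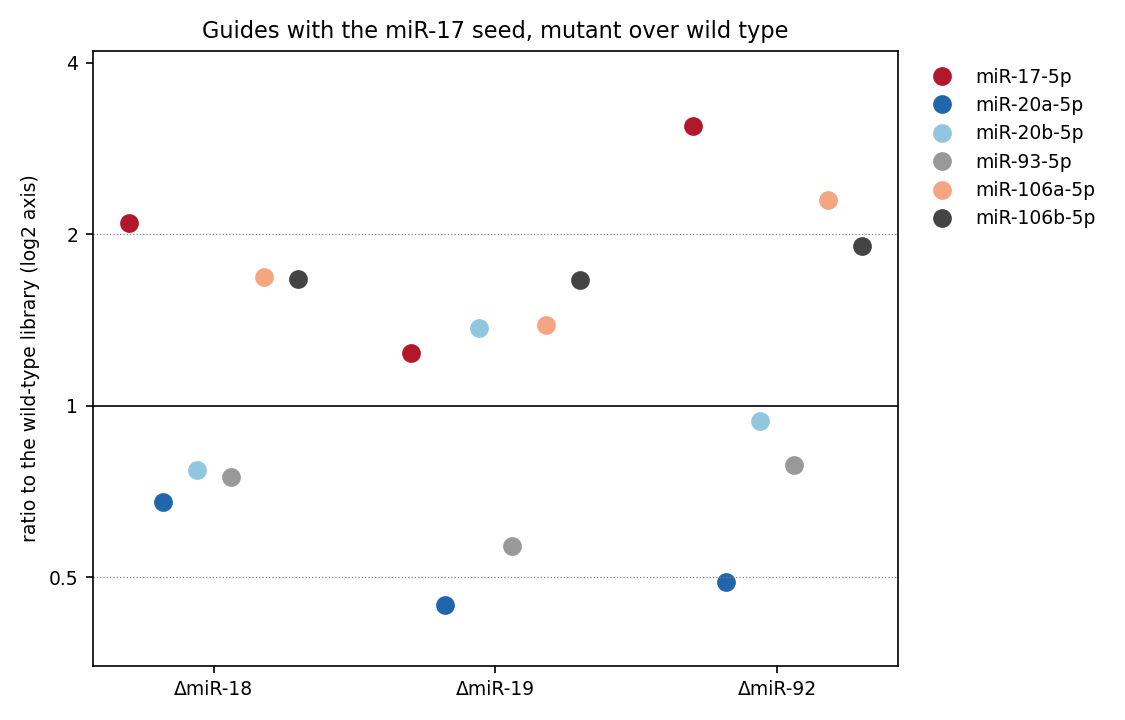
Ratio to the single wild-type library (log2 axis) of the 6 guides with the miR-17 seed in the 3 mutants that kept the family; solid line, equal to wild type; dotted lines, 2-fold. miR-17-5p, miR-106a-5p and miR-106b-5p lie above 1 and miR-20a-5p and miR-93-5p below 1 in all 3, while miR-20b-5p is mixed and its value in ΔmiR-92 takes either sign over the scalings.

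miR-17-5p and miR-20a-5p made up a large minority of all guides that carry their seed. Of the summed level of the 6 guides they took 48.1% (ΔmiR-18), 37.6% (ΔmiR-19), 49.6% (ΔmiR-92) and 45.2% (wild type). In the deleted libraries the share was between 0.0232% and 0.352%. Within it the makeup changed: miR-17-5p alone held 30.4% (ΔmiR-18), 22.8% (ΔmiR-19) and 38.7% (ΔmiR-92), against 16.2% (wild type). miR-20a-5p held 17.7%, 14.8% and 10.99% in these mutants, against 28.99% in wild type.

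The total of guides with the seed was lower on average where the pair was deleted, by less than the spread between libraries. The 6 guides summed to 68560 nRPM (ΔmiR-17), 104208 (ΔmiR-17,18), 71831 (ΔmiR-17,18,92) and 133651 (full deletion), against 119505 (ΔmiR-18), 94020.2 (ΔmiR-19), 138988 (ΔmiR-92) and 107165 (wild type). ΔmiR-17 and ΔmiR-17,18,92 lay below every intact library, whereas the full deletion and ΔmiR-17,18 lay among them. Deleted libraries averaged 94563 ± 30625 nRPM and intact ones 114919.6 ± 19124 nRPM (SD, n = 4 each), a mean difference of -0.32 on the log2 scale (two-sided exact permutation p = 0.257).

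The 4 paralog guides alone summed to 68529 nRPM (ΔmiR-17), 103841 (ΔmiR-17,18), 71814 (ΔmiR-17,18,92) and 133619.5 (full deletion), against 62056 (ΔmiR-18), 58663 (ΔmiR-19), 69989 (ΔmiR-92) and 58762 (wild type). All deleted libraries but ΔmiR-17 exceeded all intact ones. The means were 94451 ± 30587 nRPM and 62368 ± 5320 nRPM (SD, n = 4 each), 0.55 apart on the log2 scale (two-sided exact permutation p = 0.0571). The exact permutation p fell to 0.0286 under median-ratio or TMM scaling (0.56 and 0.57) and without ΔmiR-17 (0.68). Leaving out ΔmiR-17 takes away the only deleted library that did not exceed all intact ones, so the lower p there adds no support. With a library left out there are fewer ways to split the libraries, so these p-values are not on the same footing as 0.0571. It was 0.0857 without the full deletion (0.36) or ΔmiR-92 (0.60), and 0.143 without any one of ΔmiR-18, ΔmiR-19 or wild type (0.52 to 0.55). miR-93-5p was the paralog guide with the widest gap, at 40605, 39823, 36702 and 76211 nRPM in ΔmiR-17, ΔmiR-17,18, ΔmiR-17,18,92 and the full deletion, against 24978, 18904, 26257 and 33347 nRPM in ΔmiR-18, ΔmiR-19, ΔmiR-92 and wild type. In the model of all miRNAs, the miR-93-5p difference of 0.86 ± 0.27 did not pass (limma adjusted p = 0.676).

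**Figure D4:**
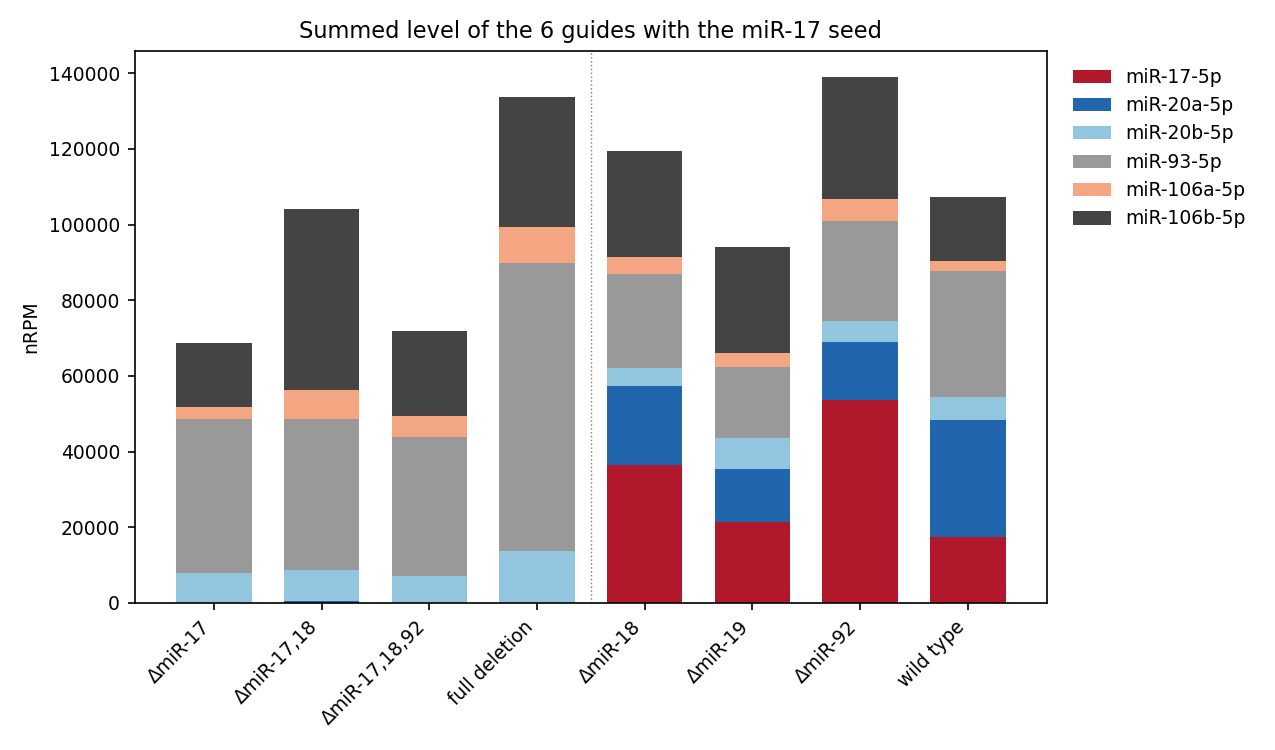
Level in nRPM of the 6 guides with the miR-17 seed, stacked, in 8 genotypes with 1 library each (left of the dotted line, miR-17 family deleted; right, intact). miR-17-5p (red) and miR-20a-5p (dark blue) make up 37.6% to 49.6% of the stack in intact libraries and at most 0.352% in deleted ones.

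Among all miRNAs other than the members, those whose levels most resembled the guides were sought by fixed measures of likeness. Other strands of the cluster stayed in this search. By Pearson's r of log2(nRPM + 1) over the 8 libraries, in which each guide's points fall into the separate deleted and intact sets, the highest of 325 miRNAs were the same for both guides. They were miR-652-3p, miR-5099 and miR-669c-5p, with r of 0.77, 0.76 and 0.73 for miR-17-5p and 0.81, 0.81 and 0.80 for miR-20a-5p. By the root mean square difference of log2 ratios to wild type over the 3 intact mutants, the lists differed. miR-17-5p was nearest to miR-136-3p and miR-3071-5p, which have identical values in the table (0.30), and then to miR-106a-5p (0.32). miR-20a-5p was nearest to miR-708-3p (0.07), at 0.681, 0.466 and 0.457 of wild type in ΔmiR-18, ΔmiR-19 and ΔmiR-92, and then to miR-335-3p and miR-351-5p (0.17 each). All these ratios share the one wild-type library.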

How the data were processed

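Small RNA was profiled in 8 genotype libraries and 1 library of undetermined reads. Per the submitters' processing notes, tools were STAR 2.2.0, featureCounts (Subread 1.4.2) and SAMtools 0.1.19, with the build mm9; parameters are not stated there. The deposited table gives a normalised signal per mature miRNA and library (1046 rows, 977 accessions, 57 listed more than once). Within 0.001 reads, 100% of these deposited signal values were whole multiples of 1 read, which recovered the read counts. Rows of one accession within 10% of each other were merged. Values were multiplied by 0.1159 to give nRPM. The deposited scaling matched median-ratio factors over all 9 libraries, with the undetermined library included. limma 3.58.1 with a trend (R 4.3.3) tested log2(nRPM + 1) of the 551 miRNAs averaging 10 nRPM or more, 4 deleted against 4 intact libraries, at a Benjamini-Hochberg adjusted p of 0.05. edgeR 4.0.16 and DESeq2 1.42.0 on the recovered reads, other scalings, pseudocounts and filters, and leaving out each library were alternatives. Single values were compared by exact permutation tests, and ratios have exact conditional (Clopper-Pearson) 95% intervals (scipy 1.17.1). The miRNAs named are the 4 members, the paralogs of the same seed and the 3 most alike by each measure, beside miR-18a-5p, miR-539-3p and the same-seed pairs, which were added after their values were seen. Members, lists and tests were chosen with earlier results of these data known.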

Additional observations from a re-analysis of the deposited data

Results flagged for a closer look

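In 16 groups of 4 libraries, the highest or the lowest value was checked for standing apart from the rest. Chance gives about 1 in 20 such cases where groups are independent. The 16 groups share libraries and strands, so the 3 cases found cannot be set against that rate. miR-17-5p at 180.0 nRPM and miR-20a-5p at 187 nRPM in ΔmiR-17,18 stood apart from the other libraries with the family deleted. The ratio of miR-17-3p to miR-20a-3p, 18.4 in ΔmiR-18, stood apart from the other libraries that kept the family. In addition, the library of undetermined reads, which entered no test, held miR-17-5p at 20168 nRPM. That is above the 17331 nRPM of wild type but below ΔmiR-19, ΔmiR-18 and ΔmiR-92 (21449.8, 36341 and 53719.9 nRPM).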

How the results depend on the processing

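Over 18 alternatives, 4 miRNAs stayed called lower, and each member kept its direction and its call. The members are deleted by design, so for them the alternatives only recheck the labels. The differences ranged over -11.42 to -9.25 for miR-17-5p, -11.28 to -8.52 for miR-17-3p, -10.17 to -8.40 for miR-20a-5p and -14.16 to -5.43 for miR-20a-3p (highest adjusted p 0.00732, by edgeR). Leaving out 1 library gave between 0 and 1 miRNAs called higher. The 1, without ΔmiR-92, was miR-539-3p (log2 2.12 ± 0.38, limma adjusted p = 0.0423; with all 8 libraries 1.69, limma adjusted p = 0.557). The 4 paralog guides differed by 0.56 under median-ratio and 0.57 under TMM scaling, both at an exact permutation p of 0.0286, while the p stayed at 0.0571 under the other 2 scalings. With 1 library left out they differed by 0.36 to 0.68, with exact permutation p between 0.0286 and 0.143. These p-values rest on fewer splits than those with all 8 libraries, and the lowest came from leaving out ΔmiR-17. With both arms at 10 nRPM or more, 30.1% of other hairpins ranged as widely as miR-20a. In ΔmiR-92, miR-17-3p turned to 1.17 of wild type with plain read totals and to 1.03 with totals outside the cluster, and miR-20a-3p to 1.13 with plain totals. The cause was not tested. With plain totals the median log2 ratio of all miRNAs was 0.23 in ΔmiR-19 and 0.24 in ΔmiR-92, against 0.05 and 0.0046 with the deposited scaling. The mean log2 guide ratio of the intact mutants minus wild type lay between 1.55 and 2.14 with 1 mutant left out. No paired analysis was possible because each genotype had 1 library. With 1 library per genotype, the spread between replicates was not measured. The 3p strands had at most 21 reads where deleted, which limits their ratios there.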

Other observations

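In the library of undetermined reads, miR-17-5p stood at 20168 nRPM, miR-17-3p at 649 nRPM, miR-20a-5p at 13036 nRPM and miR-20a-3p at 65.8 nRPM. Its ratio of 5p to 3p reads was 31.1 for miR-17 and 198 for miR-20a, both above the highest of the 4 intact genotype libraries. Its ratio of miR-17-5p to miR-20a-5p was 1.55.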
